A study of Mus musculus with 36 samples.

Results

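The 10 genes described here are known from the early embryo and from pluripotent stem cells: Dppa2, Dppa4, Dppa5a, Utf1, Tdh, Lin28a, Lin28b, Trim71, L1td1 and AU018091. They were taken by name, and all 10 were found among the 50957 genes listed in the RNA-seq tables of the series. The set was chosen by their TPM and expected counts in the 3 comparisons made here, which were already known, so that their differences are given as a description, with fold changes and their errors but without P-values.

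RNA was sequenced in 11 libraries of mouse cells taken from the BMP4 induced primed to naïve transition (BiPNT), in which epiblast stem cells (EpiSCs), cultured cells in the primed state of pluripotency, are carried toward the naïve state. The first experiment compared Day 3 cells sorted on the receptor c-Kit, with 2 libraries of c-Kit+ and 2 of c-Kit- cells. These cells had been in Stage 1 medium, which holds BMP4, the EZH2 inhibitor EPZ6438 and a DOT1L inhibitor, EPZ5676 or SGC0946. The second compared 3 libraries of EpiSCs, kept in N2B27 with Activin A, bFGF and XAV939, with 2 libraries of Day 6 BV+SC+ cells, which are labelled as primordial germ cell-like cells (PGCLCs) and were sorted on a Blimp1-mVenus and a Stella-ECFP transgene. The protocol given for both libraries induced the reporter EpiSCs with BMP4, EPZ5676 and EPZ6438 for 3 days and then kept them for 3 days in 2i medium with vitamin C. The EpiSC line with these reporters was derived from embryonic stem cells with the same transgenes. The descriptions of these libraries, however, carry the names 2iJi for replicate 1 and GK15, the name of another second-stage condition in the study, for replicate 2, so the labels conflict on the second medium, and medium and replicate cannot be told apart. The third experiment had 1 library of Day 3 cells with SGC0946, an inhibitor of the histone H3K79 methyltransferase DOT1L, and 1 library without it. The paper describes both as Day 3 BiPNT cells, with or without DOT1L inhibitor, and its Stage 1 medium also holds BMP4 and EPZ6438. None of the labels says that replicates came from separate cultures, so the spread between libraries, from which the errors given here are derived, may be technical.

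Depth was 1726038 to 1841442 expected counts in the sorted libraries, 2444211 to 3070115 in EpiSCs, 14778809 to 18099059 in BV+SC+ cells, and 4577685 without and 4776143 with SGC0946. The sorted libraries list 50600 genes and the other 7 list 29267, and their library kits differ, so that TPM, the transcript level corrected for transcript length and depth, are set side by side across these sets without a test. The sort was checked on Kit, which stood at 99.6 and 96.0 TPM in c-Kit+ and at 4.8 and 3.2 TPM in c-Kit- cells. All 9 germ cell markers had more than 3 counts in both BV+SC+ libraries, and 2 of the 9 had them in every EpiSC library. Prdm1 (Blimp1) and Dppa3 (Stella), the genes of the sort reporters, are among the 9. EpiSCs had such counts for 4 of 5 primed epiblast markers, with Cer1 listed at 0. The deeper BV+SC+ libraries also had them for 4 of these 5 and for 9 of 10 trophoblast markers. This rule therefore cannot tell the cell types apart at unequal depth. The 4 pluripotent markers Pou5f1, Sox2, Nanog and Sall4 summed to 1670 to 1729 TPM in c-Kit+ and 95.2 to 95.8 TPM in c-Kit- cells, while 10 trophoblast markers summed to 3429 to 3992 TPM in c-Kit+ and 15988 to 17086 TPM in c-Kit- cells. The germ cell markers summed to 33.3 to 39.8 TPM in EpiSCs, 4132 to 4986 TPM in BV+SC+ cells, and 963 TPM without and 2514 TPM with SGC0946. The part of cell composition in the differences below was not tested, and in bulk RNA fewer cells of a type and less RNA per cell cannot be told apart.

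LIN28A and LIN28B are RNA-binding proteins of the early embryo and the germ line. They hold precursors of the let-7 microRNAs and block let-7 maturation, and LIN28A recruits enzymes that add uridines to these precursors. Mature let-7 in turn represses the mRNAs of both LIN28 proteins and of TRIM71, a TRIM-NHL protein that binds and represses mRNAs. DPPA2 and DPPA4 bind chromatin as a pair and act on genes of the earliest embryonic stages and on developmental promoters. DPPA5A and L1TD1 are RNA-binding proteins of pluripotent cells, UTF1 is a chromatin-associated cofactor of embryonic stem cells, and TDH is the mitochondrial dehydrogenase with which mouse embryonic stem cells split threonine for glycine and acetyl-CoA.

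The let-7 family is shown first because 3 of the 10 genes carry matches to it. RefSeq (GRCm38.p6) gave 11 let-7 and miR-98 loci with 9 different 5p names in the table used here, and bases 2 to 8, the seed that pairs with target mRNAs, were identical at all 11. Of these mature microRNAs, 3 that differ outside the seed are printed with the seed in capitals. They come from chr13:48538239-48538260 (minus strand), chr9:106178846-106178867 (plus strand) and chrX:151913229-151913250 (plus strand).
let-7a-5p: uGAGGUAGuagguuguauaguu
let-7g-5p: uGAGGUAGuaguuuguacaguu
miR-98-5p: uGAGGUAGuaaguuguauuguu

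The 7-base complement of that seed, CTACCTC, was searched in the longest annotated 3' UTR of each gene (GENCODE M21). Lin28a held 2 matches in 2775 bases, Lin28b held 4 in 4445 bases and Trim71 held 4 in 5512 bases, while the 3' UTRs of the other 7 genes, of 122 to 1320 bases, held none. Over all 21101 protein-coding genes with an annotated 3' UTR, 10.1% had at least 1 match and 12 genes, or 0.0569%, had 4 or more. The median 3' UTR of these genes was 1087 bases long, shorter than those of Lin28a, Lin28b and Trim71, and a longer UTR can hold more matches of any kind. An A followed the match at 7 of the 10 sites, both in Lin28a, 1 in Lin28b and all 4 in Trim71. These 7 sites are printed with the match in capitals, each on the minus strand of GRCm38.
Lin28a, chr4:134005184-134005210: cacagcctgttgaaCTACCTCattttt
Lin28a, chr4:134004546-134004572: agatcgccacaaacCTACCTCactgtg
Lin28b, chr10:45381017-45381043: cccgggcgggaagtCTACCTCatgcaa
Trim71, chr9:114512467-114512493: acattgcctaagtcCTACCTCagctta
Trim71, chr9:114512371-114512397: gtgataatttctatCTACCTCaactct
Trim71, chr9:114509042-114509068: ttagtatggattttCTACCTCaatttt
Trim71, chr9:114509016-114509042: tggcaaaaagttgtCTACCTCacgtcg

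**Figure D1:**
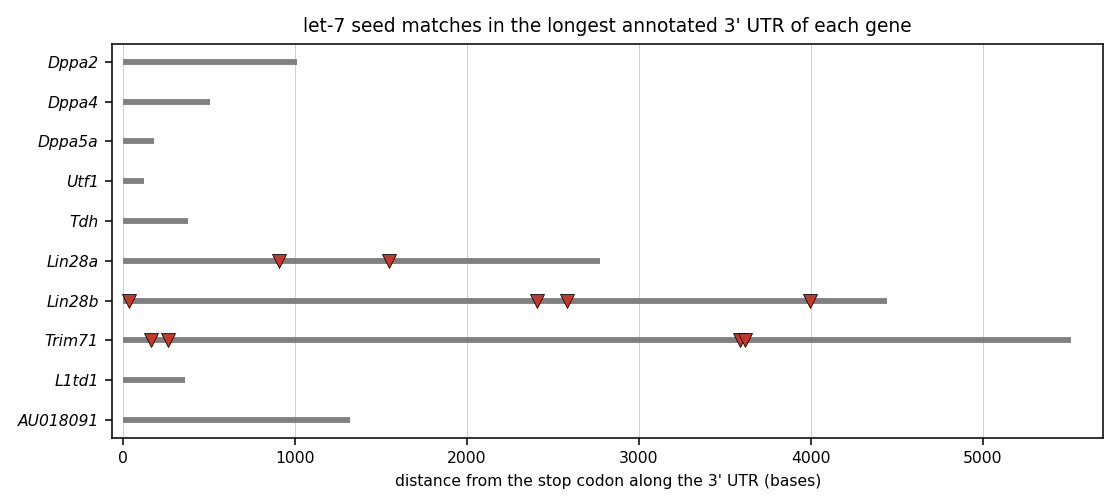
The grey bars give the length of the longest annotated 3' UTR of each gene in bases from the stop codon, and each triangle marks a 7-base let-7 seed match. Matches lie in Lin28a (2), Lin28b (4) and Trim71 (4), and the other 7 genes have none.

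The RefSeq promoter table (GRCm38.p6) held 5 of the 10 genes, Utf1, Lin28a, Lin28b, Trim71 and L1td1, each with 250 bases before and 50 bases after the start. Of these 5, only Utf1 and L1td1 were higher both in c-Kit+ cells and in the library with SGC0946, and their promoters are printed for that reason. Dppa2, Dppa4, Dppa5a and Tdh, which it does not hold, were also higher in both. The 250 upstream bases of Utf1 and of L1td1, both on the plus strand, are shown with GC boxes in capitals.
Utf1, chr7:139943606-139943855: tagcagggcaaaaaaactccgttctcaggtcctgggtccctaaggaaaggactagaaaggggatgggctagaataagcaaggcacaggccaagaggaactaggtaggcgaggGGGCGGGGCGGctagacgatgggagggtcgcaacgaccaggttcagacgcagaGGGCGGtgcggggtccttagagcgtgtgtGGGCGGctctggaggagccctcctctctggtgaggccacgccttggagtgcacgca
L1td1, chr4:98726504-98726753: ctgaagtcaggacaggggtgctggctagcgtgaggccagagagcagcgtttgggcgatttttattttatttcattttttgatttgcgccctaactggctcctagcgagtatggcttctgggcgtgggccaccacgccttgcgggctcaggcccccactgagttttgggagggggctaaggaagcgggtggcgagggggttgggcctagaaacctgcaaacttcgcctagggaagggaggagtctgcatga

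GGGCGG, the GC box, was found on either strand in 35.7% of the 32851 promoters of this length. The Utf1 promoter held it 4 times, starting 138, 133, 85 and 56 bases upstream of the start, where the copies at 138 and 133 share 1 base. Lin28a had 1 GC box, 33 bases downstream of the start on the opposite strand, and Trim71 had 1, 12 bases upstream. L1td1 and Lin28b had none. Distances are counted from the RefSeq start. The E-box CACGTG, present in 7.15% of promoters, was found in Lin28b, 49 bases upstream. The octamer core TTTGCAT, the SOX core AACAATG and the ESRRB element AAGGTCA, found on either strand in 4.63%, 3.78% and 4.72% of promoters, were not in any of the 5 windows. The RefSeq starts used for Utf1, Lin28a, Lin28b and L1td1 lie inside the spans that GENCODE gives these genes. That of Lin28b lies farthest inside, with its window at 45470152 to 45470451 and the GENCODE end at 45486395. The GC content of the Lin28b window was 39.0%, against 58.7% to 63.3% in the other 4 and a median of 52.7% over all promoters.

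Across the 3 experiments the genes fell into different patterns. Dppa2, Dppa4, Dppa5a and Tdh were at or near 0 in EpiSCs and c-Kit- cells and present in c-Kit+ and BV+SC+ cells. Utf1 and L1td1 were already high in EpiSCs. Lin28a, Lin28b and Trim71 were present in all 11 libraries. A gene was called when edgeR's quasi-likelihood test gave a P-value below 0.05 and the change exceeded 2-fold. By this rule 6 of the 9 members that could be tested were called higher in the c-Kit+ population and 1 lower, where 10.8% and 13.6% of all 11018 genes were, 24.4% in either direction. Dppa4 had too few counts for that test. Against EpiSCs, 5 of the 10 members were called higher in BV+SC+ cells and 3 lower, where 17.2% and 17.8% of 11792 genes were, 35.0% in either direction. With SGC0946, 5 of 9 members were past 2-fold higher on the TPM + 1 scale and none was past 2-fold lower, where 6.33% of 14038 genes were higher and 3.45% lower between these 2 libraries, 9.78% in either direction. For 3 members, Utf1, Tdh and L1td1, the 95% counting interval of the count ratio lay wholly past 2-fold, where this held for 0.920% of the 17391 genes with a count. The 5 members called higher in BV+SC+ cells, Dppa2, Dppa4, Dppa5a, Tdh and AU018091, had 0 to 4 counts over all EpiSC libraries. They passed the filter on low counts only through BV+SC+ cells. Dppa2, Dppa5a and Tdh, with 0 to 2 counts in c-Kit- cells, passed it only through c-Kit+ cells. AU018091, with 3 counts in c-Kit+ cells, passed it only through c-Kit- cells. Dppa4, at 0.68 TPM without SGC0946, was compared only through the library with it. The genes were also chosen with these contrasts known, and nothing is read from the numbers called against these shares.

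**Figure D2:**
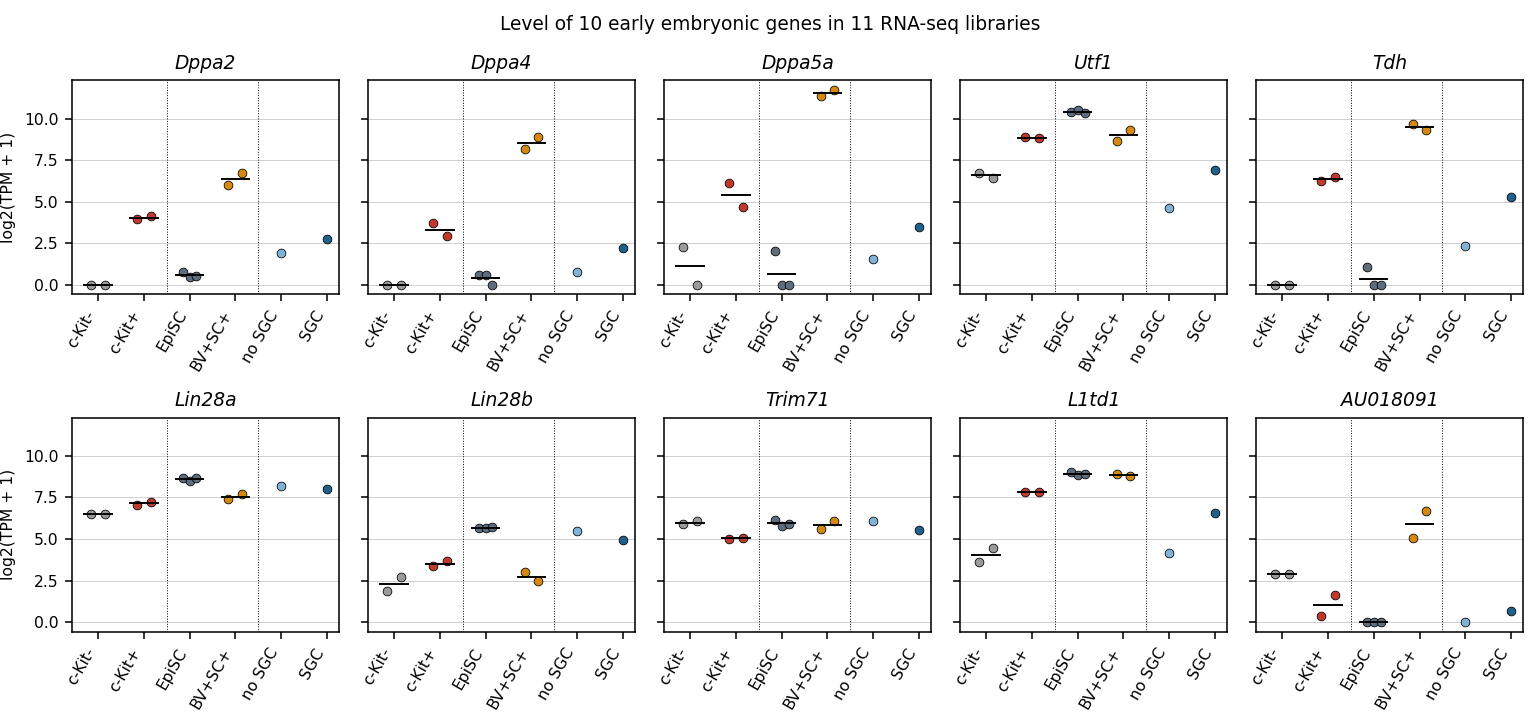
Each point is a library and each panel a gene, on the log2(TPM + 1) scale, with a line at the mean of each group with replicates, and dotted lines separate the 3 experiments. Dppa2, Dppa4, Dppa5a and Tdh lie near 0 in c-Kit- cells and EpiSCs and are highest in BV+SC+ cells, where Dppa5a reaches 2568 and 3363 TPM.

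Dppa2 and Dppa4 lie next to each other on chromosome 16 of GRCm38, on the same strand. Dppa4 spans 48283733 to 48294237 and Dppa2 spans 48303908 to 48319723, with 9670 bases and no protein-coding gene between them. Dppa2 had no count in either c-Kit- library and stood at 14.2 and 16.8 TPM in c-Kit+ cells. With 3 counts per library as the floor in c-Kit- cells, this was at least 9.89-fold higher. Dppa4 also had no count in c-Kit- cells and stood at 11.9 and 6.5 TPM in c-Kit+ cells, at least 4.58-fold higher. The c-Kit+ values of Dppa4 rest on 17 and 10 counts. Such floors and the intervals given below cover counting error only.

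In EpiSCs Dppa2 was at 0.67, 0.35 and 0.42 TPM, from 4 counts in all, and in BV+SC+ cells at 64.2 and 105 TPM. Its log2 fold change was 7.48 (SE 0.414). Dppa4 was at 0.50, 0.52 and 0 TPM in EpiSCs, from 2 counts, and reached 290 and 471 TPM in BV+SC+ cells. Its CPM, counts scaled to library size, were 1266 times as high in BV+SC+ cells, with a 95% counting interval of 350 to 10459. In both genes the BV+SC+ replicate labelled GK15 was the higher one. Without SGC0946 Dppa2 stood at 2.76 TPM and with it at 5.62 TPM, from 12 and 26 counts, a count ratio of 2.08 (95% counting interval 1.01 to 4.52). Dppa4 went from 0.68 to 3.69 TPM, from 2 and 13 counts, a ratio of 6.23 (1.41 to 56.9).

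The balance within the pair differed between populations. Dppa4 had 4.51 and 4.47 times the TPM of Dppa2 in the BV+SC+ libraries. In c-Kit+ cells the ratio was 0.839 and 0.389, and in the library with SGC0946 it was 0.657 with a 95% counting interval of 0.310 to 1.32. The BV+SC+ ratios lay above the upper bounds of all of these, the highest of which was 1.61, while kit and gene list also differ between the sorted and the other libraries. In EpiSCs and c-Kit- cells the counts were too few for a ratio. Dppa2 shares 906 bases at 99.3% identity with the pseudogene Gm9788, and Dppa4 shares 735 bases at 98.9% with Gm14058, so reads of these genes could have been divided. In the sorted libraries Gm9788 was listed at 1.25 TPM in c-Kit- replicate 1 and at 0 in the other 3, and Gm14058 at 0 in all 4.

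**Figure D3:**
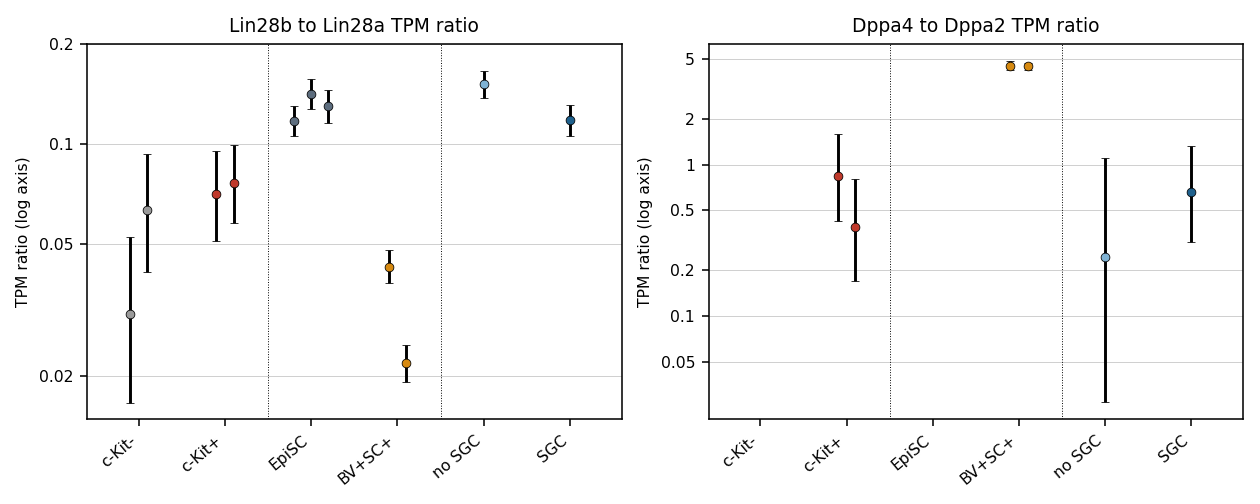
Points are the ratio of TPM within a library, on a log axis, with 95% counting intervals (exact, from the counts of both genes), for Lin28b to Lin28a on the left and Dppa4 to Dppa2 on the right. Lin28b to Lin28a is lowest in the BV+SC+ library labelled GK15, at 0.0218, and Dppa4 to Dppa2 is above 1 in BV+SC+ cells. The points of Dppa4 to Dppa2 in the c-Kit+ and SGC0946 libraries lie below 1. Of these only c-Kit+ replicate 2 has an interval that excludes 1.

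Dppa5a, on chromosome 9 (78367052 to 78368177), had the highest level of the 10 genes in BV+SC+ cells, 2568 and 3363 TPM, which put its mean at rank 31 of 12929 genes over 1 TPM. In EpiSCs it was at 3.01, 0 and 0 TPM, from 2 counts in 1 library. The ratio of CPM was 2852, with a 95% counting interval of 789 to 23548. In c-Kit+ cells Dppa5a was at 67.8 and 24.6 TPM and in c-Kit- cells at 3.82 and 0, from 50 counts against 2, a ratio of 25.4 (6.68 to 216). The c-Kit+ libraries thus differed from each other by more than 2-fold and neither overlapped the c-Kit- libraries. It was at 1.96 TPM without and 10.2 TPM with SGC0946, on 2 and 11 counts, a ratio of 5.27 (1.15 to 48.9) whose interval includes 2-fold.

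Tdh, on chromosome 14 (63492347 to 63509092), followed the same order. No c-Kit- library had a count, the c-Kit+ libraries had 75.8 and 90.1 TPM, and the difference was at least 48.2-fold. EpiSCs had 3 counts in replicate 1 and none in the other libraries, and BV+SC+ cells had 807 and 641 TPM, a CPM ratio of 1924 (95% counting interval 658 to 9331). Here BV+SC+ replicate 1 was the higher one, in contrast to Dppa2, Dppa4 and Dppa5a. Between the SGC0946 libraries Tdh had the largest ratio on the TPM + 1 scale of the 9 genes compared, with 4.06 TPM without and 37.3 TPM with the inhibitor. Its count ratio was 8.40 (5.07 to 14.8). Tdh shares 251 bases at 98.8% identity with the pseudogene Gm13929, which was listed at 0 in the 4 sorted libraries.

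Utf1, on chromosome 7 (139943789 to 139945112), stood at 1355, 1456 and 1265 TPM in EpiSCs and was the highest of the 10 genes there. BV+SC+ cells had 400.5 and 640 TPM, below all EpiSC libraries, with a log2 fold change of -1.31 (SE 0.200). Without BV+SC+ replicate 1 the log2 fold change was -0.99 and the gene was no longer called. In c-Kit+ cells Utf1 was at 463 and 452 TPM and in c-Kit- cells at 104 and 85.5 TPM, without overlap, with a log2 fold change of 2.41 (SE 0.130). It was at 23.6 TPM without SGC0946 and 119 TPM with it, a count ratio of 5.13 (3.88 to 6.87). Thus Utf1 was the only one of the genes past 2-fold with SGC0946 that was called lower in BV+SC+ cells than in EpiSCs.

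L1td1, on chromosome 4 (98726734 to 98738480), was at 529, 455 and 487 TPM in EpiSCs and at 471 and 442 TPM in BV+SC+ cells, and these ranges overlap. The log2 fold change was -0.16 (SE 0.104). At Day 3 its level differed between the sorted populations, with 228 and 230 TPM in c-Kit+ against 11.03 and 20.59 TPM in c-Kit- cells, and the log2 fold change was 4.0 (SE 0.201). Without SGC0946 it was at 17.0 TPM and with it at 94.8 TPM, a count ratio of 6.90 (5.42 to 8.89). The trophoblast markers, which differed between the sorted populations, summed to 4307 TPM without and 4338 TPM with SGC0946, and the 4 pluripotent markers to 297 and 866 TPM. The trophoblast sum hides opposite directions. Phlda2, with the highest mean of 2141 TPM, had a log2 ratio of 0.30, and Tead3 (0.06) and Ascl2 (0.03) were also above 0. Gata2 (-0.21), Gata3 (-0.93), Plac1 (-0.16), Krt8 (-0.20), Krt18 (-0.34) and Peg10 (-0.27) were below 0. A shift in cell composition was not tested.

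**Figure D4:**
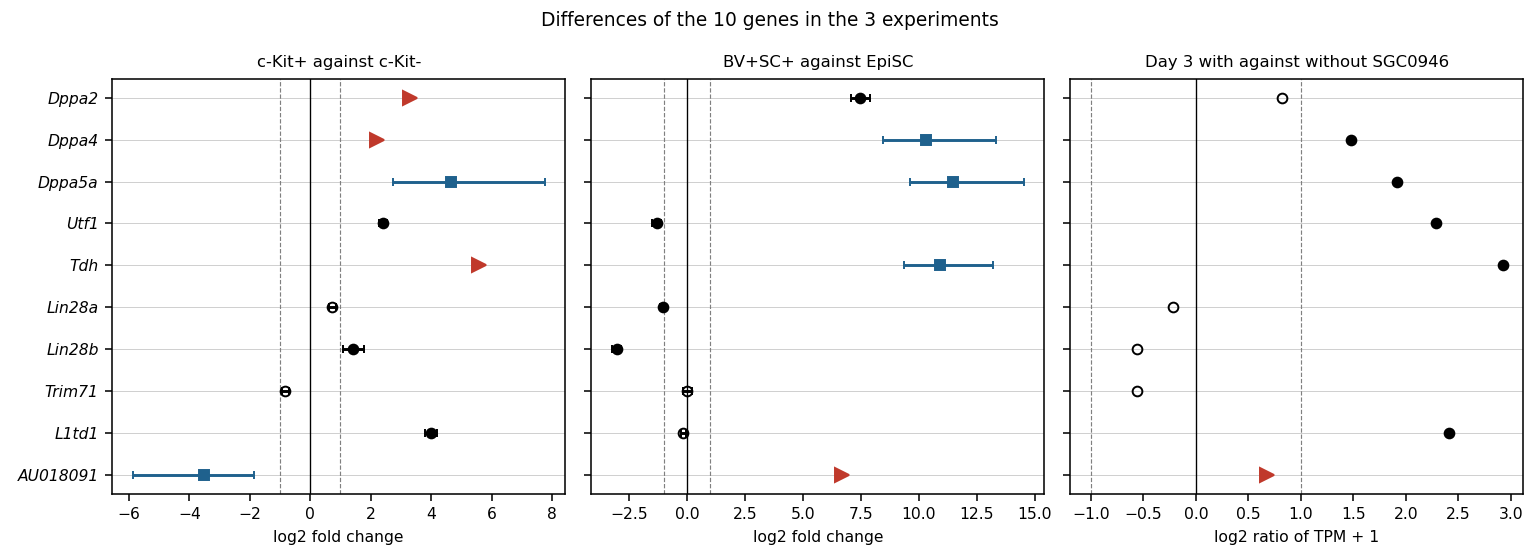
Each row is a gene and the dashed lines mark 2-fold. Black circles in the left and middle panels are edgeR log2 fold changes with standard errors derived from its test (filled when called). Blue squares are count ratios with 95% counting intervals where a group held 1 to 3 counts. Red triangles are ratios against a floor of 3 counts per library in a group without counts. The right panel shows the log2 ratio of TPM + 1 of single libraries, with a triangle from counts for AU018091. That triangle rests on 5 counts and is not a lower bound, since the 95% counting interval of the ratio starts at 0.878. AU018091 is the one gene called lower in c-Kit+ cells, and Lin28a, Lin28b and Trim71 lie left of 0 with SGC0946.

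Lin28a lies on chromosome 4 (134003330 to 134018841) and Lin28b on chromosome 10 (45376620 to 45486395). Lin28a was the more abundant paralog in every library. It was at 414, 357 and 399 TPM in EpiSCs and 165 and 207 TPM in BV+SC+ cells, without overlap. The log2 fold change was -1.02 (SE 0.130), close to the 2-fold threshold, and without BV+SC+ replicate 1 it was -0.86 and the gene was not called. Lin28b was lower by more, with 48.7, 50.5 and 51.8 TPM in EpiSCs against 7.06 and 4.53 TPM in BV+SC+ cells and a log2 fold change of -3.04 (SE 0.198). The ratio of Lin28b to Lin28a therefore went from 0.118, 0.142 and 0.130 in EpiSCs to 0.0427 and 0.0218 in BV+SC+ cells, with counting intervals that do not overlap between the groups.

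At Day 3 Lin28a was at 131 and 151 TPM in c-Kit+ and 88.1 and 90.0 TPM in c-Kit- cells. The log2 fold change of 0.73 (SE 0.120) did not reach 2-fold, though the libraries did not overlap. Lin28b was at 9.19 and 11.5 TPM in c-Kit+ and 2.71 and 5.67 TPM in c-Kit- cells, and the groups did not overlap. A log2 fold change of 1.43 (SE 0.352) became 0.99, below the threshold, without c-Kit- replicate 1. The c-Kit- values rest on 14 and 28 counts. With SGC0946 both paralogs were lower, Lin28a with 295 TPM without and 254 TPM with it, and Lin28b with 44.6 and 30.0 TPM. The count ratios were 0.827 (0.780 to 0.878) and 0.684 (0.602 to 0.777), neither of them 2-fold. Lin28a shares 235 bases with Gm13061, which was listed at no more than 2.79 TPM in any library.

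Trim71, on chromosome 9 (114507133 to 114564369), had the log2 fold change closest to 0 of the 10 genes between EpiSCs and BV+SC+ cells, with 68.9, 53.7 and 58.8 TPM against 47.5 and 67.8 TPM. The ranges overlap. The log2 fold change was 0.02 (SE 0.183), and without BV+SC+ replicate 2 it was -0.29. In c-Kit+ cells Trim71 was at 31.4 and 32.8 TPM, below the 59.4 and 65.5 TPM of c-Kit- cells, with a log2 fold change of -0.82 (SE 0.112) that stayed inside 2-fold. In the library with SGC0946 it was at 45.7 TPM against 67.9 TPM without, a count ratio of 0.684 (0.633 to 0.740). Lin28a, Lin28b and Trim71 each had a count ratio below 1 in this pair of libraries, where the median log2 ratio over all 14038 genes was 0.01. In the other comparisons they did not go together. The log2 fold changes in c-Kit+ cells were 0.73 for Lin28a, 1.43 for Lin28b and -0.82 for Trim71. In BV+SC+ cells they were -1.02, -3.04 and 0.02. Any link of these levels to the let-7 matches was not tested. Levels of mature let-7 were not measured in these libraries.

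AU018091 is a protein-coding gene on chromosome 7 (3154658 to 3169203) that lies 49422 bases from Mir290a, the first hairpin of a microRNA cluster of embryonic stem cells, of which 8 hairpins in the RefSeq table are within 100000 bases. It had no count in EpiSCs and 32.8 and 102 TPM in BV+SC+ cells, at least 105-fold higher, and the replicate labelled GK15 had 3.10 times the TPM of the other. It was the one gene of the 10 called lower in c-Kit+ cells, with 6.57 and 6.36 TPM in c-Kit- cells from 15 and 20 counts, and 1 and 2 counts in the c-Kit+ libraries. The ratio of c-Kit+ to c-Kit- CPM was 0.0871 (95% counting interval 0.0171 to 0.276). The second c-Kit+ library was listed at 2.05 TPM on only 2 counts, because the effective length there was 928 bases against 3284 bases in the first, so its TPM are less firm than its counts. Between the SGC0946 libraries AU018091 had no count without and 5 counts with the inhibitor, too few for a statement.

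The order of the 7 libraries outside the sort can be set out gene by gene on 1 gene list. For Dppa2, Dppa4, Dppa5a and Tdh the library with SGC0946 lay above the one without it and both lay below the BV+SC+ libraries, and the EpiSC libraries were lowest except for Dppa5a, where 1 EpiSC library at 3.01 TPM lay above the library without SGC0946. For Utf1 and L1td1 both Day 3 libraries lay below the EpiSC and BV+SC+ libraries. For Lin28a and Lin28b the EpiSC libraries were highest and the BV+SC+ libraries lowest, with the Day 3 libraries between them, and for Trim71 no such order was seen. Kit, at 102 TPM without and 119.6 TPM with SGC0946, and Dot1l, at 62.1 and 66.8 TPM, were within 2-fold between the Day 3 libraries.

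Genes whose log2(TPM + 1) followed a member most closely over these 7 libraries were ranked by Pearson's r among the 10637 genes whose TPM averaged 5 or more. Morc1, a gene of the male germ line, led for Dppa4 with r = 0.998, Adam19 for Dppa2 with r = 0.997, Sugt1 for Dppa5a with r = 0.997 and Wdr62 for Tdh with r = 0.996. Limd2 led for Lin28b with r = 0.999, Pi4k2b for Lin28a with r = 0.996, Enpp3 for Utf1 with r = 0.995, Spp1 for L1td1 with r = 0.997 and Cdc5l for AU018091 with r = 0.999. Trim71 had no partner of that closeness, with Mark2 first at r = 0.964. The libraries fall into a few groups that also differ in depth, so that many genes reach such values, and they are given as a description.

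The pathway around LIN28 was described with genes that process let-7 or act with LIN28. Of 9 such genes, all tested, 2 were higher and none lower in c-Kit+ cells, beside 10.8% and 13.6% of all genes, with a median log2 fold change of 0.19 beside 0.03 over all genes tested. Tut4, which encodes the terminal uridylyltransferase recruited by LIN28A, had 41.0 and 51.4 TPM in c-Kit+ against 10.7 and 40.4 TPM in c-Kit- cells. Tut4 was called from counts, not from these TPM, with a log2 fold change of 1.27 (SE 0.262, edgeR adjusted p = 0.00412). In TPM, 1 of the c-Kit- libraries was near the c-Kit+ level. Dis3l2, which degrades uridylated let-7 precursors, rose by 1.08 (SE 0.233, edgeR adjusted p = 0.00502). Against EpiSCs, 1 of the 9 was higher in BV+SC+ cells, Dgcr8, the RNA-binding partner of Drosha (log2 fold change 1.41, SE 0.116, edgeR adjusted p = 5.61e-05), and 1 was lower, Ago2, an Argonaute that carries microRNAs (-1.12, SE 0.110, adjusted p = 0.00012). These compare with 17.2% higher and 17.8% lower over all genes. Dgcr8 shares 825 bases with the adjoining gene Trmt2a and Ago2 shares 222 with Chrac1. None of the 9 was past 2-fold with SGC0946.

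Of 12 known targets of let-7 or LIN28, 4 were higher and 2 lower in c-Kit+ cells, with a median of 0.33, beside the 10.8% and 13.6% of all genes. Ccnd2, the D-type cyclin, had 155 and 148 TPM in c-Kit+ against 21.3 and 16.3 TPM in c-Kit- cells (log2 fold change 3.33, SE 0.146, edgeR adjusted p = 8.00e-07), and Mycn rose by 1.77 (SE 0.196). Arid3a had 28.2 and 16.8 TPM in c-Kit+ against 94.6 and 88.8 TPM in c-Kit- cells (SE of the log2 fold change 0.144, edgeR adjusted p = 5.95e-06), and Myc fell by 1.91 (SE 0.216, adjusted p = 0.00013). Between EpiSCs and BV+SC+ cells 1 target was higher in the latter and 4 were lower, beside 17.2% and 17.8% of all genes, with a median of -0.43 beside 0.05. Mycn was again higher, by 1.19 (SE 0.243, edgeR adjusted p = 0.00397). Myc had 165, 85.3 and 79.02 TPM in EpiSCs and 3.2 and 5.3 TPM in BV+SC+ cells (log2 fold change -4.62, SE 0.431, edgeR adjusted p = 9.87e-05), and Ccnd2 fell by 1.54 (SE 0.442, edgeR adjusted p = 0.0187). So Ccnd2 was higher in c-Kit+ cells and lower in BV+SC+ cells, each against its own reference. None of the 12 was past 2-fold with SGC0946.

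Of 8 mRNAs that TRIM71 is known to repress, 4 were tested in the sorted cells, where 2 were higher and 1 lower beside 10.8% and 13.6% of all genes. Egr1, an immediate early transcription factor, and Rbl1, a retinoblastoma family protein, were higher in c-Kit+ cells. Egr1 rose by 3.02 on the log2 scale (SE 0.119, edgeR adjusted p = 5.82e-07) and Rbl1 by 1.51 (SE 0.303, adjusted p = 0.00362). Cdkn1a, the CDK inhibitor p21, was lower by 1.32 (SE 0.165, edgeR adjusted p = 0.000249). Trim71 itself was lower there, within 2-fold. Of 6 tested against EpiSCs, none was higher in BV+SC+ cells and 2 were lower, beside 17.2% and 17.8% of all genes. Egr1 had a log2 fold change of -5.78 (SE 0.634, edgeR adjusted p = 0.000207) and Plxnb2, a plexin receptor, of -2.01 (SE 0.212, adjusted p = 0.000173). The EpiSC libraries had 350, 83.7 and 168 TPM of Egr1 and differed widely, while both BV+SC+ libraries were under 4 TPM. Egr1 was at 30.6 TPM without and 81.8 TPM with SGC0946, and Hoxa5, a homeobox gene, at 26.6 and 2.9 TPM. Rbl2 was also past 2-fold higher in TPM, 1.63 against 5.75, but on 13 counts in each library, so that its TPM differ through effective length.

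Of 10 genes of the early embryo or the germ line that DPPA2 and DPPA4 are known to act on, none was tested in the sorted cells or compared between the SGC0946 libraries, where their levels were too low. Zscan4c, Zscan4d, Zscan4f, Zfp352, Tcstv1 and Tcstv3, which mark the 2-cell stage, were under 1 TPM in all 11 libraries, and Duxf3 is listed only in the sorted ones, at 0. Between EpiSCs and BV+SC+ cells 2 genes were called, Mov10l1, an RNA helicase of the piRNA pathway, at 3.5 and 6.0 TPM and Syce1, of the synaptonemal complex, at 7.7 and 8.5 TPM. No EpiSC library had a count of either, and the differences were at least 6.72-fold and 4.81-fold. Both passed the filter on low counts only through the BV+SC+ libraries. The deeper BV+SC+ libraries can show lower levels than the EpiSC libraries, in which 3 counts make 0.977 to 1.23 CPM.

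The glycine made from threonine after the TDH step can feed the glycine cleavage system and with it one-carbon metabolism. Of 13 enzymes of threonine, glycine, serine and folate metabolism, 4 were higher and none lower in c-Kit+ cells, beside 10.8% and 13.6% of all genes, with a median of 0.29. Gldc, the glycine decarboxylase of the glycine cleavage system, had 131 and 145 TPM in c-Kit+ against 24.4 and 23.9 TPM in c-Kit- cells (log2 fold change 2.66, SE 0.131, edgeR adjusted p = 1.23e-06). Mthfd1, a trifunctional folate enzyme of the cytosol, rose by 1.23 (SE 0.122, edgeR adjusted p = 6.40e-05). Against EpiSCs, 2 were higher in BV+SC+ cells and 6 lower, beside 17.2% and 17.8% of all genes, with a median of -0.76. Amt, the aminomethyltransferase of the glycine cleavage system, and Shmt1, the cytosolic serine hydroxymethyltransferase, were higher by 1.56 and 1.16 (edgeR adjusted p = 8.05e-05 and 8.43e-05). Mthfd2, a mitochondrial folate enzyme, fell from 236, 316 and 274 TPM to 51.4 and 34.2 TPM, and Phgdh, the first enzyme of serine synthesis, from 482, 572 and 500 TPM to 96.8 and 76.0 TPM. Mthfd2 had a log2 fold change of -2.63 (SE 0.199, edgeR adjusted p = 3.95e-05) and Phgdh of -2.51 (SE 0.142, adjusted p = 1.15e-05). Phgdh shares 1597 bases with the pseudogene Gm7901. Tdh thus stood high in BV+SC+ cells where Mthfd2 and Phgdh stood low, and near 0 in EpiSCs where both were high. None of the 13 was past 2-fold with SGC0946.

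Of 15 other genes of early embryonic pluripotency, 8 were tested in the sorted cells and all 8 were higher in c-Kit+ cells, where 10.8% of all genes were. Of these 8, 4 had 0 to 3 counts in c-Kit- cells (Gdf3, Nanog, Dppa3 and Sox2) and passed the filter on low counts through c-Kit+ cells, so the count is given as a description. Gdf3, a ligand of the TGF-beta family, had no count in c-Kit- cells and 51.9 and 38.9 TPM in c-Kit+ cells, at least 30.9-fold higher. Nanog was at 131 and 117 TPM against 0.48 and 0 TPM, on 1 count, a CPM ratio of 536 (95% counting interval 95.7 to 21193). Against EpiSCs, 11 of the 15 were higher in BV+SC+ cells and 2 lower, where 17.2% and 17.8% of all genes were. Of the 11, 5 had no count in EpiSCs (Dppa3, Zfp42, Tcl1, Nr0b1 and Dnmt3l). These 5 passed the filter on low counts only through BV+SC+ cells, so this count too is given as a description. Dppa3 and Zfp42 had no count in EpiSCs and stood at 1162 and 1202 TPM and at 161 and 116 TPM in BV+SC+ cells, at least 339-fold and 105-fold higher. The BV+SC+ cells were sorted on a reporter of Dppa3 (Stella), so its level there was set by the sort. Dppa3 shares 451 bases with Dppa3-ps and Zfp42 shares 266 with Zfp42-ps1. Tdgf1, a co-receptor of NODAL, and Eras, a RAS protein of embryonic stem cells, were lower. Tdgf1 had a log2 fold change of -2.79 (SE 0.163, edgeR adjusted p = 1.26e-05) and Eras of -2.36 (SE 0.550, adjusted p = 0.00753). Eras shares 135 bases at 100% identity with Pcsk1n, which was itself at 6.16, 9.78 and 7.05 TPM in EpiSCs and 0.06 and 1.15 TPM in BV+SC+ cells, and the part of shared reads in the Eras value was not tested. In the sorted cells the pseudogene Tdgf1-ps1, which shares 512 bases with Tdgf1, was listed at 12.3 and 23.7 TPM in c-Kit+ cells. With SGC0946, 11 of the 13 genes compared were past 2-fold higher and none lower, beside 6.33% and 3.45% of all genes, among them Gdf3 (1.5 against 29.4 TPM) and Tdgf1 (3.0 against 41.2 TPM). Their median log2 ratio of 1.78 stood beside 0.01 over all 14038 genes of these 2 libraries. Of the 11, Tcl1 and Dnmt3l had no count without SGC0946, and Fbxo15, Nr0b1 and Tex19.1 were under 1 TPM there. These genes were compared only through the library with SGC0946, so this count too is given as a description. With TPM over 1 required in both libraries, 8 genes of all 6 companion lists were past 2-fold higher, against 13 without that condition.

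**Figure D5:**
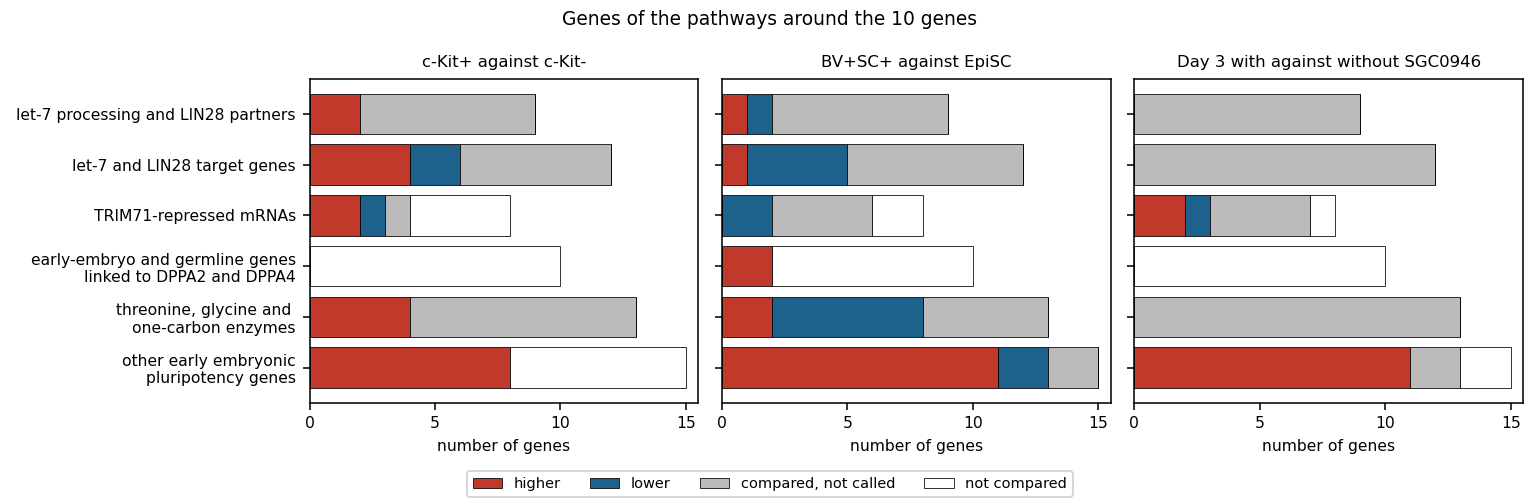
Each bar splits 1 list of genes into those called higher (red), called lower (blue), compared but not called (grey) and not compared because of low values (white), for the 3 experiments from left to right. Calls need a P-value below 0.05 and more than 2-fold in the left and middle panels and 2-fold on the TPM + 1 scale in the right panel. The list of other early embryonic pluripotency genes has 8, 11 and 11 genes called higher.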

How the data were processed

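The RNA-seq tables of 11 of the 36 samples were analysed, and the other assays of the series were not used here. The members and gene lists were chosen with earlier results of these data known. The authors aligned reads to the GENCODE M13 transcriptome with Bowtie2 and deposited RSEM's expected counts without scaling between samples, beside RSEM's TPM and the effective length of each gene in bases (another measure, read only where TPM and counts part). The submitters' processing notes give RSEM 1.3.1 for all but the sorted libraries. The labels name a kit for total RNA without ribosomal RNA for the EpiSC, BV+SC+ and SGC0946 libraries, and the methods one for mRNA.

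Expected counts were rounded and tested with edgeR 4.0.16 under R 4.3.3 by its quasi-likelihood test, after filterByExpr and TMM scaling, within each experiment, with Benjamini-Hochberg adjustment over all genes. Calls needed an unadjusted P-value below 0.05 and more than 2-fold. The SE of a log2 fold change was its absolute value divided by the square root of the quasi-likelihood F statistic. It is therefore not the plain spread of 1 gene between libraries. The fit was tested on simulated data. Single libraries were compared as log2(TPM + 1) for genes over 1 TPM in at least 1 of them. Counting intervals (95%) were exact and conditional on the sum of both counts. A group without counts was set at 3 counts per library.

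All 10 members were named, and of each of 6 companion lists up to 2 genes per direction and comparison, by the largest log2 fold change among called genes averaging 1 TPM or more, with Kit, Dot1l and the likest genes. Other genes were named after their values were seen. Gene models came from GENCODE M21, promoters and microRNAs from RefSeq, and shared sequence (at least 98% identity over 75 bases) from BLAST 2.17.0. Protein sequences were not used here. Python 3.11.15 with pandas, SciPy and Matplotlib served for the rest. The alternatives were DESeq2 1.42.0, RLE factors, other filters, an adjusted threshold, the replicate block, each replicate left out, and for SGC0946 other pseudocounts, filters and scalings.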

Additional observations from a re-analysis of the deposited data

How the results depend on the processing

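With at least 10 counts in every library, which removes genes that are absent from a group, 3 members were called higher and 0 lower in c-Kit+ cells, of 5 tested, and 0 higher in BV+SC+ cells, with 7 companion genes higher there. Over all genes this filter left 710 higher and 998 lower c-Kit+ calls and 1169 higher BV+SC+ calls, and no filter gave 3089 higher BV+SC+ calls with a median log2 fold change of 0.29. Leaving out each replicate in turn gave 6 to 7 members higher and 1 lower in c-Kit+ cells, 19 to 20 companion genes higher and 3 to 5 lower, and in BV+SC+ cells 5 members higher and 1 to 3 lower, with 16 to 19 companion genes higher and 13 to 17 lower. The highest count of lower companion genes in c-Kit+ cells, 5, came without c-Kit+ replicate 1, and the lowest count of lower members in BV+SC+ cells, 1, came without BV+SC+ replicate 1, where Utf1 (-0.99) and Lin28a (-0.86) were not called. Lin28a also lost its call in BV+SC+ cells without a filter (-0.98), with at least 10 counts (-0.99) and without EpiSC replicate 1 (-0.98). The log2 fold change of Trim71 in BV+SC+ cells ranged from -0.29 to 0.27 over libraries left out, below 0 without EpiSC replicate 2 (-0.06), EpiSC replicate 3 (-0.01) or BV+SC+ replicate 2. The cause was not tested.

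With SGC0946, 3 members had a counting interval wholly past 2-fold, Utf1, Tdh and L1td1, a setting chosen after seeing the data that 0.920% of 17391 genes met, and 8 companion genes were past 2-fold with TPM over 1 in both libraries. Over all genes that filter left 374 higher and 181 lower, CPM gave 630 and 187, and a pseudocount of 0.1 TPM gave 1245 and 713. From expected counts, which do not correct for length, the ratio of Lin28b to Lin28a was 0.0737 in c-Kit-, 0.119 in c-Kit+, 0.206 in EpiSCs, 0.0526 in BV+SC+, 0.242 without and 0.200 with SGC0946, and that of Dppa4 to Dppa2 in BV+SC+ cells was 3.38.

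Samples of different groups share replicate numbers, but no label says that these mark a pair. The deposited tables of the sorted libraries carry a date that c-Kit+ and c-Kit- libraries of the same number share, and what was done on it is not stated. Deviations of same-numbered libraries correlated at 0.114 between the sorted groups and at -0.035 and 0.0037 between EpiSCs and BV+SC+ cells. With the replicate number as a block, 6 members were called higher and 1 lower in c-Kit+ cells and 5 higher and 3 lower in BV+SC+ cells, companion genes numbered 20 and 3 and 18 and 15, and the log2 fold change of Trim71 in BV+SC+ cells was -0.026. Protein identity was not run.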
